A study of Mus musculus with 19 samples.

Results

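Mitosis genes encode the kinases, kinetochore proteins, motors and scaffolds that a cell uses to separate its chromosomes and divide its body. A set of 51 such genes was followed across 5 groups of mouse spleens profiled on 19 Affymetrix arrays. For each gene the probe set annotated to that symbol alone was used, and 50 of the 51 genes had one. Ncapg, a condensin subunit, had no probe set of its own and is not analysed here. The 50 measured genes are part of 22180 genes read from the arrays. None of the 50 had more than 1 such probe set, and all 50 had a mean above the 40th percentile of all values, which was 4.80 on the log2 scale. That left no member to be dropped for low signal.

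The groups were 4 tumour-bearing spleens of Rosa26-HGAL+Aid-Cre mice, 5 tumour-bearing spleens of Rosa26-HGAL+Mb1-Cre mice and 4 tumour-bearing spleens of Rosa26-HGAL+Sca1-Cre mice. Beside them stood 3 pre-tumoral spleens of Rosa26-HGAL+Sca1-Cre mice and 3 spleens of wild-type mice. HGAL is an adaptor protein of germinal centre B cells, here carried at the Rosa26 locus and switched on by Cre. Aid-Cre follows the gene of activation-induced deaminase, expressed in germinal centre B cells, Mb1-Cre follows Cd79a of the B lineage, and Sca1-Cre follows a gene of haematopoietic stem and progenitor cells. All 16 HGAL spleens thus carry both a Cre and the HGAL allele, while wild type carries neither. The labels give no strain, sex or age, so none of these can be matched between groups from them. The labels give the tissue as total spleen and the material as splenic cells, and name no sorting of tumour cells. The 12 measured B cell markers averaged 9.75, 9.63 and 10.08 in the Aid-Cre, Mb1-Cre and Sca1-Cre tumour spleens, 10.83 in pre-tumour spleens and 10.86 in wild type. Single spleens ranged lower, to 7.16 in Aid-Cre tumour 2 and 8.55 in Sca1-Cre tumour 3, where the B cell median was -3.53 and -2.40 from wild type.

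Most of these genes are silent in resting lymphocytes. They are transcribed in a wave late in the cell cycle, after the genes for DNA replication, so that their level in a tissue is known to follow how much of it is dividing. In the mouse spleen the dividing cells include red cell precursors of the red pulp, granulocyte precursors and activated B cells. Transcription of the late wave runs through the DREAM complex and the MuvB, B-Myb and FoxM1 proteins, which meet the promoter at a short element called the cell cycle genes homology region (CHR), often near CCAAT boxes bound by NF-Y.

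The 50 genes went up and down together from spleen to spleen. Taking each gene as its log2 difference from the wild-type mean, the median of the 50 genes was 0.98, 1.31, -1.29 and -0.83 in the 4 Aid-Cre tumour spleens. In the Mb1-Cre tumour spleens it was -0.70, 0.18, 0.86, 1.49 and 1.42, and in the Sca1-Cre tumour spleens -1.35, 0.50, 0.62 and 0.68. The pre-tumour spleens had medians of -1.98, -0.96 and -0.67, against 0.14, -0.37 and 0.22 in wild type. Each tumour group therefore held spleens above wild type and spleens below it, and all 3 pre-tumour spleens lay below all 3 wild-type ones. The group means of this median (with SD) were 0.04 ± 1.30 for the 4 Aid-Cre tumours, 0.65 ± 0.92 for the 5 Mb1-Cre tumours, 0.11 ± 0.98 for the 4 Sca1-Cre tumours, -1.20 ± 0.69 for the 3 pre-tumour spleens and -0.003 ± 0.32 for the 3 of wild type. The spread within groups, pooled over the 5 groups, was 0.94, which is larger than any difference between 2 tumour groups and larger than that between any tumour group and wild type. Fewer dividing cells in a spleen and less of these transcripts in each dividing cell cannot be told apart in RNA of unseparated cells.

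**Figure D1:**
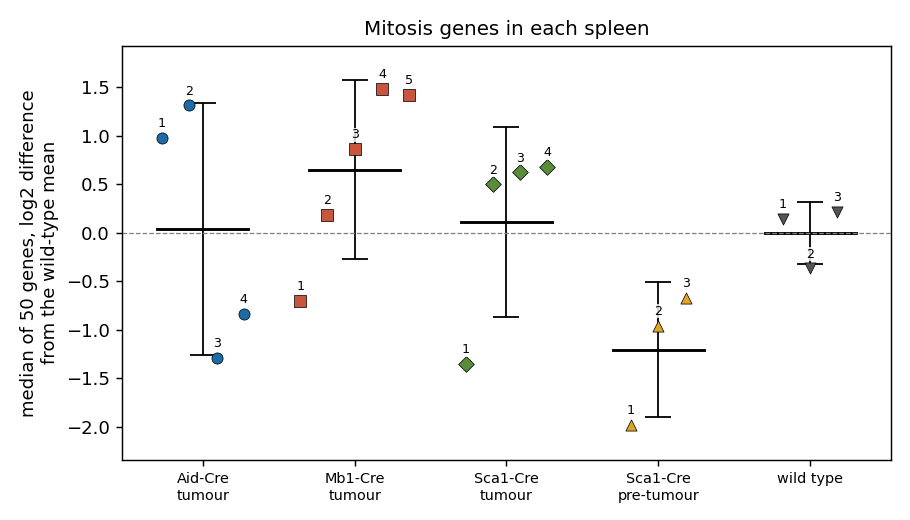
Median over the 50 mitosis genes of the log2 difference from the wild-type mean (y axis) in each spleen, by group (x axis), with the replicate number above each point, and the group mean and SD as a bar and whiskers. Aid-Cre tumours split into 2 spleens near 1 and 2 near -1, Sca1-Cre tumour 1 lies at -1.35 under the other 3, and the 3 pre-tumour spleens lie below all 3 wild-type spleens.

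Counting genes spleen by spleen showed the same block. These counts only describe the 50 genes, as the share of all genes outside the wild-type range was not counted for single spleens. The 50 genes move together and are not separate observations. In Aid-Cre tumours 1 and 2 and in Mb1-Cre tumours 3, 4 and 5, all 50 genes were above the highest wild-type spleen. In Aid-Cre tumour 3 and Sca1-Cre tumour 1, 49 genes were below the lowest wild-type spleen, and 45 were so in Aid-Cre tumour 4 and in Mb1-Cre tumour 1. Sca1-Cre tumours 2, 3 and 4 had 45, 43 and 36 genes above the wild-type range. Pre-tumour spleens 1, 2 and 3 had 48, 46 and 45 genes below it. A single spleen, pre-tumour 1, held the lowest value of 43 of the 50 genes, while the highest value lay in Mb1-Cre tumour 4 for 21 genes, in Mb1-Cre tumour 5 for 16 and in Aid-Cre tumour 2 for 10.

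Across the 19 arrays the median Pearson correlation of the 1225 pairs among the 50 genes was 0.959, and 86.7% of the pairs were over 0.9. After subtracting each group's mean the median was still 0.959, so the common movement lay within groups as well. The pairs share arrays and the common scaling, and the values are given as a description of these 19 arrays. The most similar pair was Nuf2, a rod protein of the kinetochore, with Tpx2, which activates Aurora A on spindle microtubules (r = 0.996), and the least similar was Ube2c, a ubiquitin-conjugating enzyme of the anaphase-promoting complex, with Cep55, a protein of the final cut between daughter cells (r = 0.296). Set against the mean of the other 49 genes, Tpx2 had r = 0.997 and Cep55 only 0.51. Next above Cep55 came Kif20b, a kinesin of the midzone, at 0.90 and Racgap1, a GTPase-activating protein of the cleavage furrow, at 0.90. Outside the 50 genes, the 10 whose pattern over the 19 arrays was most like the mean of the members were Esco2 (0.994), Stil, Knl1, Ckap2, Aspm, Ncapd2, Ckap2l, Incenp, Depdc1a and Sgo1 (0.987). All 10 stand in the lists of cohesin or other mitosis genes written for this comparison.

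The genes also varied far more than most. Their level was higher too, with a median of 7.93 against 5.60 for all genes, and the part of level in the spread was not tested. Over the 19 arrays a member's SD ran from 0.61 (Kif20b) to 1.42 (Birc5), with a median of 1.07, against a median of 0.19 for all genes. The gap between a member's lowest and highest spleen had a median of 3.60 and reached 4.76 in Anln, the actin-binding protein of the furrow, against 0.74 for all genes. Group membership held 33.6% of a member's sum of squares in the median, from 18.2% in Racgap1 to 43.4% in Cdca5, against 29.0% for all genes. Most of the spread of these genes thus lay within groups.

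**Figure D2:**
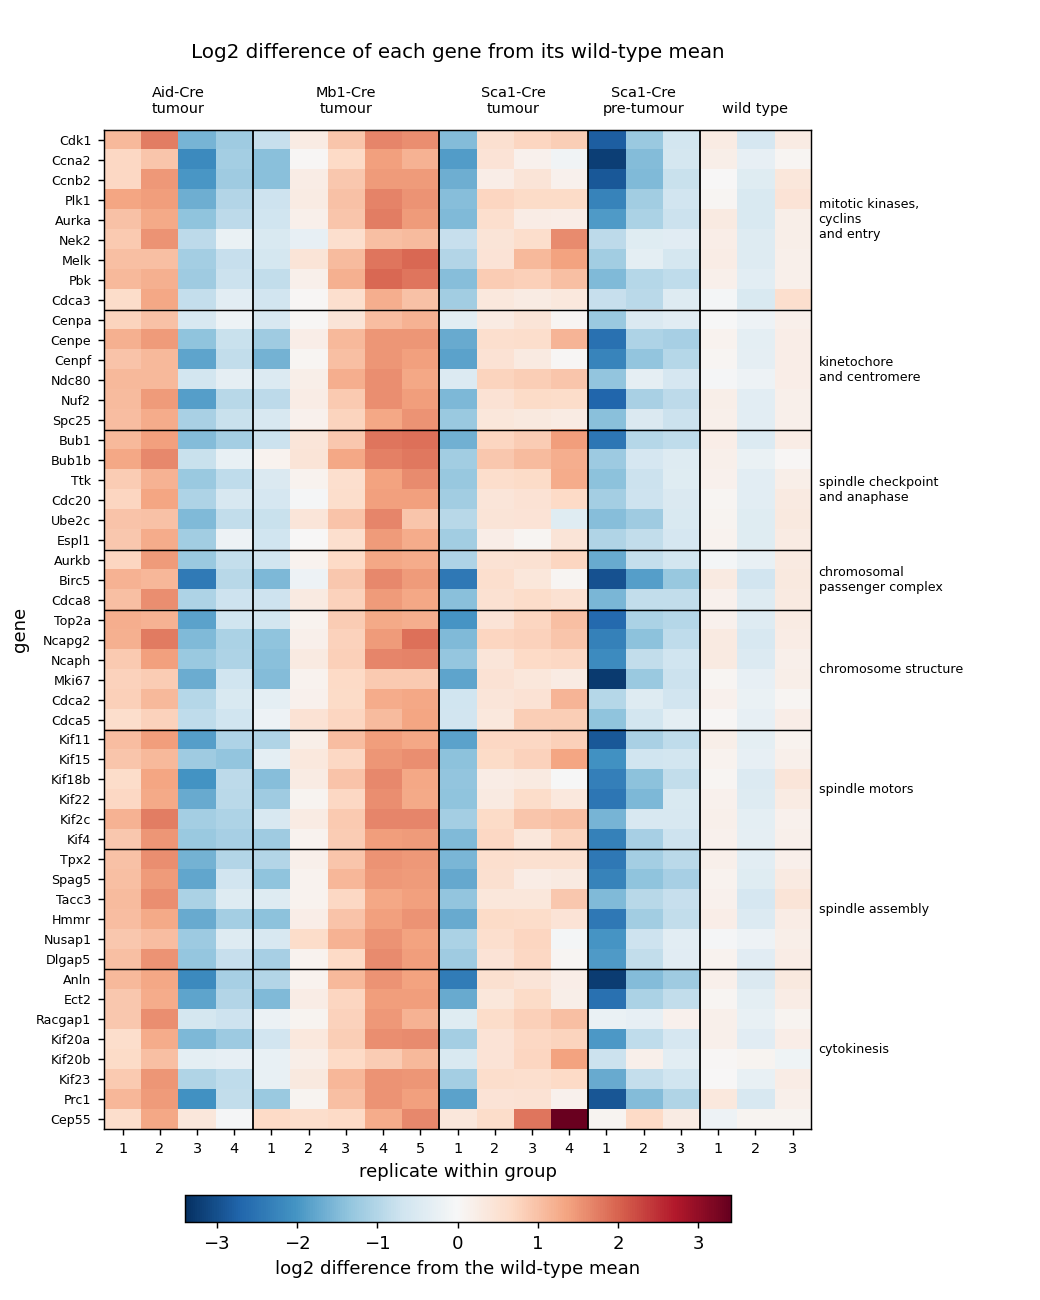
Log2 difference of each of the 50 genes (rows, ordered by role) from its own wild-type mean in each of the 19 spleens (columns, by group and replicate number), on a colour scale with red above and blue below wild type. Columns are almost uniform in colour, from dark blue in pre-tumour 1 to red in Mb1-Cre tumours 4 and 5, and Cep55 in the last row departs from its columns.

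Since the genes moved together, the promoters were read for shared letters. RefSeq gave windows of 300 bases (250 before and 50 after the gene start, build GRCm38.p6) for 43 of the 50 genes, 46 windows in all. The CHR letters TTTGAA, read on both strands (TTCAAA on the other), stood in 37 of the 46 windows, 80.4%, against 17.9% of all 32851 windows. Within 50 bases of the start they stood in 76.1% of the member windows, against 4.94% of all windows, and the median distance to the start was 19 bases. CCAAT (or ATTGG) stood in 67.4%, against 37.4% of all windows, and 60.9% held both, against 6.95%. The variant TTCGAA was in 6.52%, against 1.56%. The E2F forms TTTCCCGC, TTTGGCGC and TTCCCGCC were in 2.17% each, against 1.07%, 0.514% and 2.19%. A window can hold several of these motifs, and some of the E2F forms can overlap each other. A match is a run of letters in the window and was not tested as a site.

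The promoters shown are those of Aurka, Ndc80, Cdca5, Kif15 and Kif23, the genes with the smallest p over the 5 groups in their roles, and of Racgap1, which followed the others less closely. Among the genes picked by their p over the 5 groups, these hold the CHR letters nearest the start. Bub1b was left out, since its letters begin 40 bases after the start. The distances given below for the shown promoters follow from this choice. Each is written 5′ to 3′ on the gene's strand, and capitals mark TTTGAA or TTCAAA and CCAAT or ATTGG. The windows are chr2:172370521-172370820 (minus strand) for Aurka, chr17:71526808-71527107 (minus) for Ndc80, chr19:6084847-6085146 (plus) for Cdca5, chr9:122950831-122951130 (plus) for Kif15, chr9:61946750-61947049 (minus) for Kif23 and chr15:99651607-99651906 (minus) for Racgap1.
Aurka: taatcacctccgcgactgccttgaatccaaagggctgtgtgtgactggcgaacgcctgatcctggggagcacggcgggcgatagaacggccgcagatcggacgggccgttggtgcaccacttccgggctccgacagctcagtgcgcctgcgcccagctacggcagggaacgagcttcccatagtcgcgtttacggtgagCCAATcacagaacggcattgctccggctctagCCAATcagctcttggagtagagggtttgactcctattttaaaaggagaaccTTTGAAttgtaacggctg
Ndc80: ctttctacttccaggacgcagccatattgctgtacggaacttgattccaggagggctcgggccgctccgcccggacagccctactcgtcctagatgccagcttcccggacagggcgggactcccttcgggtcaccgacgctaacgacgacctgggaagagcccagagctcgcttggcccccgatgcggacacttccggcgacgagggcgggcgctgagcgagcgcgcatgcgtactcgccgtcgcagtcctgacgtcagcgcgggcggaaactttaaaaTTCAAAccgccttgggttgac
Cdca5: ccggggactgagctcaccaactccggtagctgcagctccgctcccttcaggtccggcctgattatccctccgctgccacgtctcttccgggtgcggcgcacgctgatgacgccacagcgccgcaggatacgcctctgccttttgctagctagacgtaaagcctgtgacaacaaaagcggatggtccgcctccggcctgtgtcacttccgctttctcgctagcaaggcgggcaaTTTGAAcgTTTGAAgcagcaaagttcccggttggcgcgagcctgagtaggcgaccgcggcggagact
Kif15: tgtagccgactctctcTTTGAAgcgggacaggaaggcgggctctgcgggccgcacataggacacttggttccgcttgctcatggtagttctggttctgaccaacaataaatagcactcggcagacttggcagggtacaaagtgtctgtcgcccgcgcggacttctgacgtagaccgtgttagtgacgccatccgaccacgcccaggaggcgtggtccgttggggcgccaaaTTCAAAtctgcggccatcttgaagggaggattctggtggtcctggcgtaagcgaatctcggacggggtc
Kif23: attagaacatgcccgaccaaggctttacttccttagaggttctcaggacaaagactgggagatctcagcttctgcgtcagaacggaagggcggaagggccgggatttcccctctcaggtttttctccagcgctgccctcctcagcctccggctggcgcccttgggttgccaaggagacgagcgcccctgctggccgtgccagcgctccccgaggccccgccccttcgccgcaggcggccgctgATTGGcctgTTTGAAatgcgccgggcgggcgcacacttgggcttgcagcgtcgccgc
Racgap1: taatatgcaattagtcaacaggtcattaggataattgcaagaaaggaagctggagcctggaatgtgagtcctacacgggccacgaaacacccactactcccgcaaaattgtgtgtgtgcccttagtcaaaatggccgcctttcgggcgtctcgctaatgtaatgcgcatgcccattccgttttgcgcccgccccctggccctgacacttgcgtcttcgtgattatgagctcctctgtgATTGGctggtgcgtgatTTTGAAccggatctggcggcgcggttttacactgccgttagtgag
The run nearest the start began 32 bases after it in Aurka, 29 in Ndc80, 2 in Kif23 and 5 in Racgap1, and it lay 9 bases before it in Cdca5 and 19 before it in Kif15. Aurka has 2 CCAAT runs and Kif23 and Racgap1 have 1 each, upstream of the CHR letters, while Ndc80, Cdca5 and Kif15 have none in the window. TTTGAA was not found in the windows of Birc5, Nusap1 and Nek2.

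Genes were compared with limma in 1 fit of group means over the 19 arrays, with Benjamini-Hochberg adjustment over the 22180 genes and a call at an adjusted p under 0.05. Comparisons with wild type share the same 3 wild-type arrays, so their values stand side by side and are not independent. None of the 50 genes was called in any of the 9 comparisons or in the F-tests over the 5 groups and over the 3 tumour groups. The smallest adjusted p of a member in the 9 comparisons was 0.269 by limma. In the F-test over the 5 groups 1 member had an unadjusted p under 0.05, against 15.2% of all genes, and in that over the 3 tumour groups 0 members did, against 16.3%. The adjusted threshold called 0.0451% and 0.0496% of all genes in these F-tests.

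**Figure D3:**
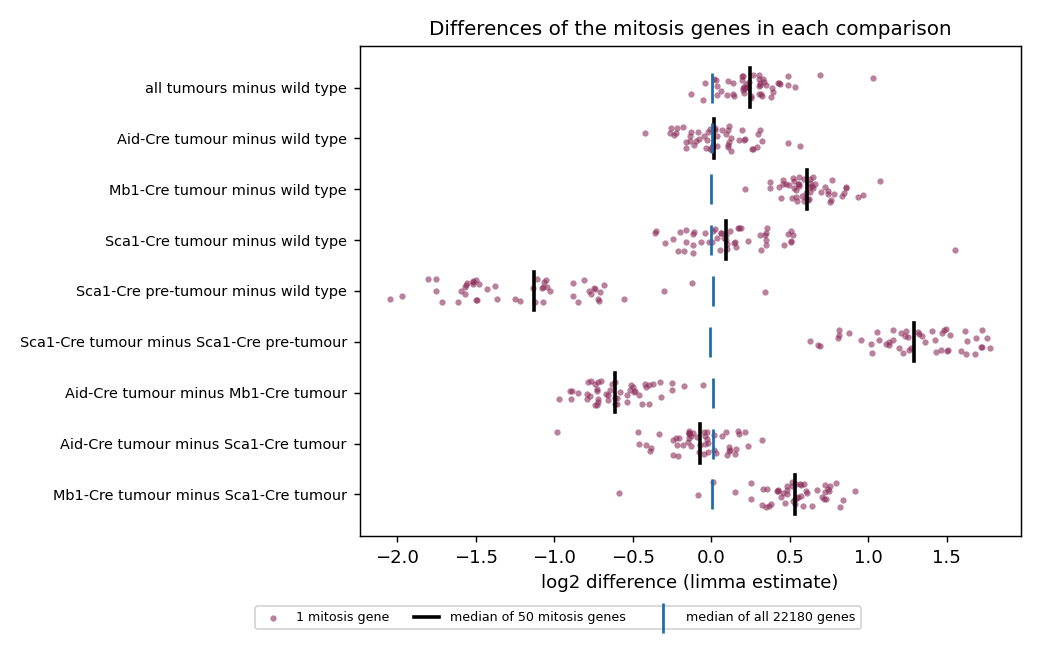
Log2 difference estimated by limma (x axis) of each of the 50 mitosis genes (points) in the 9 comparisons (y axis), with the median of the 50 genes as a black bar and the median of all 22180 genes as a blue bar. The points lie left of 0 for pre-tumour minus wild type (median -1.13), right of it for Sca1-Cre tumour minus pre-tumour (1.29) and for Mb1-Cre tumour minus wild type (0.61), and about 0 for Aid-Cre tumour minus wild type (0.02).

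Pre-tumour Sca1-Cre spleens had less of nearly every mitosis gene than wild type, and this was the widest gap of the genes with wild type. The median difference was -1.13, a 2.18-fold lower level, against 0.01 for all genes, and 49 of the 50 genes were lower. The 3 pre-tumour spleens lay below all 3 wild-type spleens for 43 of the 50 genes, against 8.49% of all genes. The other 7 were Nek2, Melk, Cdca3, Dlgap5, Racgap1, Kif20b and Cep55. No member passed the adjusted threshold, which 0.00451% of all genes passed downward and 0.0% upward. At an unadjusted p under 0.05 limma counted 1 lower member, Mki67, against 2.4% of all genes, and 0 higher ones, against 3.07%. With the 6 compared arrays alone in the fit, that count was 47 against 6.06% of all genes, and none passed adjustment (smallest adjusted p by limma 0.133). The joint fit pools the spread of these 6 arrays with the larger spread of the tumour spleens. As the 50 genes move together, the counts of 43 and 47 amount to about 1 observation of 3 spleens against 3. The count of 43 ran from 41 to 47 under 2 other scalings, without the 2 arrays highest in pancreatic transcripts and with each replicate left out. Those 2 arrays were Mb1-Cre tumour 2 and wild type 2, where exocrine pancreas genes averaged 7.24 and 5.71. The same genes averaged 5.27, 5.09 and 4.86 in pre-tumour spleens 1 to 3, against 4.63 and 4.77 in wild type 1 and 3. The pre-tumour arrays stayed in that setting, and the part of this tissue was not tested. Without pre-tumour 1 the median difference was -0.87. The count of 1 was 0 without Mb1-Cre tumour 2, pre-tumour 1 or any wild-type array, and between 3 and 9 without Aid-Cre tumour 1, 2 or 3, Mb1-Cre tumour 1, Sca1-Cre tumour 1 or pre-tumour 3.

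These pre-tumour and wild-type mice differed in more than the label. Y-linked signal was present in 1 of 3 pre-tumour arrays and in 3 of 3 wild-type arrays. H2-Ea, a class II gene that some strains lack, was 10.47 ± 0.17 in pre-tumour spleens and 3.93 ± 0.27 in wild type (SD, n = 3 each), and in the tumour groups it averaged 4.06 ± 0.25 (Aid-Cre, n = 4) and 3.99 ± 0.15 (Sca1-Cre, n = 4). The Mb1-Cre tumours were mixed, with 4.17, 10.79, 4.19, 8.76 and 4.01 in spleens 1 to 5. Erythroid markers moved with the mitosis genes: all 17 measured were lower, with a median difference of -1.71. Of them 15 were lower without overlap, against 8.49% of all genes. T cell markers went the other way, with all 12 higher and a median difference of 0.68, while the 12 B cell markers had a median difference of -0.03. The part of sex, strain background, red cell precursors and T cells in the difference was not tested beyond the fit with sex as a covariate, in which the median was also -1.13.

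Sca1-Cre tumour spleens stood above pre-tumour spleens, which carry the same genotype label, in all 50 genes. The median difference was 1.29, a 2.45-fold higher level, from 0.63 in Racgap1 to 1.78 in Bub1. No member was called, as 0.0% of all genes were in either direction. At an unadjusted p under 0.05 limma counted 6 higher members, against 2.42% of all genes, namely Bub1, Cdca5, Cenpe, Cep55, Mki67 and Ndc80. It counted 0 lower ones, against 2.93%. Only Cenpa, the histone H3 variant of centromeres, had all 4 tumour spleens above all 3 pre-tumour spleens, against 3.85% of all genes. Sca1-Cre tumour 1, with a median of -1.35, lay within the range of the pre-tumour spleens. Without it, 44 members had an unadjusted p under 0.05 and the median difference was 1.78. Arrays outside the comparison also moved the count of 6, which was 20 without Aid-Cre tumour 2, 21 without Aid-Cre tumour 3 and 19 without Mb1-Cre tumour 1. It was 12 without pre-tumour 3, 2 without Sca1-Cre tumour 2, 3 without Mb1-Cre tumour 2 or 3 or any wild-type array, and 0 without Sca1-Cre tumour 3, Sca1-Cre tumour 4 or pre-tumour 1. The fit with the compared arrays alone gave 23, against 3.9% of all genes. As the 50 genes move together, the genes in these counts are not separate observations. These groups also differed in H2-Ea, which was 3.82 to 4.13 in the Sca1-Cre tumours and 10.31 to 10.65 in the pre-tumour spleens, and Y-linked signal was present in 2 of 4 and 1 of 3 arrays. All 17 erythroid markers (median difference 1.17) and all 15 neutrophil markers (0.95) were higher, and all 12 B cell markers were lower (-0.72). The part of strain background, sex and these cells in the difference was not tested beyond the fit with sex as a covariate.

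Mb1-Cre tumour spleens had the highest average of the 5 groups. All 50 genes were higher than in wild type, by 0.22 (Mki67) to 1.07 (Bub1b), with a median of 0.61, a 1.53-fold higher level. None passed adjustment, as 0.0% of all genes did in either direction, and 0 had an unadjusted p under 0.05, against 5.13% of all genes higher and 6.2% lower. Cep55 was the single gene whose 5 tumour spleens all lay above wild type, against 4.1% of all genes. The direction of this median held in each fit that left out 1 Mb1-Cre tumour or wild-type array, the only arrays that enter it. The values ran from 0.40 (without Mb1-Cre tumour 4) to 1.00 (without Mb1-Cre tumour 1). For Mki67 these fits gave 0.05 to 0.64. Neutrophil markers were also higher in these spleens: all 15 measured, with a median difference of 2.25, of which 12 had an unadjusted p under 0.05. All 11 macrophage and red pulp markers were higher as well (median 0.74, 4 at an unadjusted p under 0.05). All 12 B cell markers were lower (median -1.11), and so were all 12 T cell markers (median -0.53). The part of these cells, and of the mixed H2-Ea levels, in the difference was not tested. In Mb1-Cre tumour 1 the mitosis median was -0.70 while the neutrophil median was 1.77, so these lists did not move together in every spleen.

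Neither the Aid-Cre nor the Sca1-Cre tumour spleens differed from wild type in a steady direction. For Aid-Cre tumours 28 of 50 genes were higher, with a median of 0.02 that lay between -0.43 and 0.50 when 1 array was left out. None was called (0.00451% of all genes upward and 0.0135% downward), 0 had an unadjusted p under 0.05 (3.95% upward and 4.35% downward over all genes), and none was free of overlap (3.75% and 3.45%). For Sca1-Cre tumours 34 of 50 genes were higher, with a median of 0.09, and without Sca1-Cre tumour 1 it was 0.59. None was called (0.00902% of all genes upward and 0.0316% downward). A single gene had an unadjusted p under 0.05 and was higher, against 6.12% of all genes higher and 5.25% lower. That gene was Cep55, also the 1 gene without overlap, against 6.21%. With all 3 tumour groups weighted equally against wild type, 47 of 50 genes were higher, from -0.13 (Ccna2) to 1.03 (Cep55), with a median of 0.25, and none was called (0.0% of all genes upward and 0.018% downward). Cep55 was again the 1 gene with an unadjusted p under 0.05, against 3.9% of all genes higher and 5.03% lower. With 1 array left out that median ran from 0.04 (without wild type 2) to 0.40 (without Sca1-Cre tumour 1).

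Between tumour groups the gaps were of the size of the spread. Aid-Cre tumours were lower than Mb1-Cre tumours in all 50 genes, with a median of -0.61, and none was called (0.0135% of all genes upward and 0.0316% downward). At an unadjusted p under 0.05 limma counted 0 members, against 4.44% of all genes higher and 4.32% lower. With 1 array left out this median ran from -1.07 (without Aid-Cre tumour 2) to -0.13 (without Aid-Cre tumour 3). Aid-Cre and Sca1-Cre tumours differed by a median of -0.07, with 16 genes higher, none called (0.00451% of all genes upward and 0.0406% downward) and 0 at an unadjusted p under 0.05 (5.69% and 7.92%). Mb1-Cre tumours were above Sca1-Cre tumours in 48 genes, with a median of 0.53, none called (0.0225% upward and 0.018% downward) and 0 at an unadjusted p under 0.05 (7.13% and 10.4%). Cep55, by -0.59, and Nek2, by -0.09, were the 2 genes that were lower. Without Sca1-Cre tumour 1 the median of Mb1-Cre minus Sca1-Cre tumours was 0.04, and without Mb1-Cre tumour 1 it was 0.92.

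Among the kinases and cyclins that bring a cell into mitosis, all 9 genes were lower in pre-tumour spleens than in wild type (median -1.25) and all 9 were higher in Mb1-Cre tumours (median 0.73). They comprise Cdk1, the kinase that starts mitosis, its cyclin partners Ccna2 and Ccnb2, Plk1, Nek2, Melk, Pbk and Cdca3 beside Aurka, the kinase of centrosomes and spindle poles. Aurka had log2 values of 8.96, 9.24, 6.59 and 7.08 in Aid-Cre tumours, 7.30, 8.13, 8.91, 9.69 and 9.42 in Mb1-Cre tumours and 6.48, 8.53, 8.21 and 8.20 in Sca1-Cre tumours. Its values were 6.04, 6.89 and 7.23 in pre-tumour spleens, against 8.28, 7.46 and 8.16 in wild type. The Aid-Cre spleens fell into a high and a low pair with wild type between them, and Sca1-Cre tumour 1 lay under every wild-type spleen. Pre-tumour spleens were lower than wild type by a difference of -1.25 ± 0.72 (SE), and limma's F-test over the 5 groups gave an adjusted p of 0.396. Ccna2 had the widest pre-tumour difference of this role, -1.75 ± 0.87. Nek2, which parts the 2 centrosomes, was among the 3 genes with the largest F-test p. Nek2 was read at 7.70, 8.32, 5.91 and 6.57 in Aid-Cre tumours, 6.29, 6.52, 7.38, 7.82 and 7.89 in Mb1-Cre tumours and 6.01, 7.25, 7.40 and 8.40 in Sca1-Cre tumours. It measured 5.91, 6.40 and 6.42 in pre-tumour spleens, against 7.03, 6.37 and 7.01 in wild type. Its highest value was in Sca1-Cre tumour 4 and its pre-tumour and wild-type ranges overlapped, with an adjusted p of 0.640 in limma's F-test.

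At the kinetochore, the structure that ties chromosomes to microtubules, all 6 genes lay below wild type in pre-tumour spleens without overlap (median -1.20). They are Ndc80, Nuf2 and Spc25 of the microtubule-binding Ndc80 complex, Cenpa, and the large proteins Cenpe, a motor, and Cenpf. The counts without overlap in this role and in those below are parts of the 43 given above, against 8.49% of all genes. As the genes move together, the roles are not separate observations. Ndc80 stood at 9.51, 9.51, 7.78 and 8.10 in Aid-Cre tumours, 7.95, 8.61, 9.64, 9.996 and 9.72 in Mb1-Cre tumours and 7.95, 9.17, 9.25 and 9.36 in Sca1-Cre tumours. Its values were 7.07, 8.10 and 7.85 in pre-tumour spleens, against 8.38, 8.23 and 8.62 in wild type. Every pre-tumour spleen was below every wild-type spleen, and 3 of the 4 Sca1-Cre tumours were above all of them. Its differences were -0.74 ± 0.55 for pre-tumour minus wild type and 1.26 ± 0.52 for Sca1-Cre tumour minus pre-tumour. Without pre-tumour 1 the first was -0.44. The second had an unadjusted p of 0.0269 and an adjusted p of 0.851 in limma. Cenpe had the widest pre-tumour difference here, -1.57 ± 0.85.

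The checkpoint and anaphase genes moved with the rest of the block. All 6 were below wild type in pre-tumour spleens without overlap (median -0.83) and higher in Mb1-Cre tumours (median 0.64). Bub1, Bub1b and Ttk hold back anaphase until chromosomes are attached, Cdc20 and Ube2c work with the anaphase-promoting complex, and Espl1 is separase, the protease that cuts cohesin. Bub1b measured 8.30, 8.63, 6.24 and 6.74 in Aid-Cre tumours, 7.09, 7.43, 8.30, 8.69 and 8.77 in Mb1-Cre tumours and 5.81, 7.89, 8.06 and 8.22 in Sca1-Cre tumours. It measured 5.76, 6.42 and 6.54 in pre-tumour spleens, against 7.17, 6.76 and 7.02 in wild type. All 5 Mb1-Cre tumours lay above the wild-type mean of 6.98, and Mb1-Cre tumour 1 overlapped the wild-type range. The difference of Mb1-Cre tumours from wild type was 1.07 ± 0.59, the largest of the 50 genes in that comparison, with an adjusted p of 0.503 in limma.

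Of the chromosomal passenger complex, which corrects attachments and positions the furrow, Aurkb (the kinase), Birc5 (survivin) and Cdca8 (borealin) were measured. All 3 were below wild type in pre-tumour spleens without overlap. Birc5 had log2 values of 8.72, 8.68, 5.13 and 6.60 in Aid-Cre tumours, 6.02, 7.38, 8.46, 9.17 and 8.99 in Mb1-Cre tumours and 5.10, 8.11, 7.92 and 7.60 in Sca1-Cre tumours. Its values were 4.58, 5.67 and 6.24 in pre-tumour spleens, against 7.85, 6.90 and 7.88 in wild type. These values span more than 4 log2 units, and Birc5 had the largest SD of the 50 genes. Its pre-tumour difference of -2.05 ± 0.99 was also the widest, a 4.14-fold lower level, with an adjusted p of 0.883 in limma. In pre-tumour 1 its level of 4.58 was under the 40th percentile of all values, so the size of the gap there is not exact.

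All 6 measured genes of chromosome structure were below wild type in pre-tumour spleens without overlap (median -1.37). Top2a untangles DNA, Ncapg2 and Ncaph are condensin II and condensin I subunits, Cdca2 brings a phosphatase to chromatin, and Cdca5 (sororin) protects cohesion. Mki67, the Ki-67 proliferation antigen that coats mitotic chromosomes, was added to the genes shown in full after its values were seen. Mki67 was read at 12.13, 12.21, 9.64 and 10.65 in Aid-Cre tumours, 9.87, 11.45, 12.002, 12.23 and 12.23 in Mb1-Cre tumours and 9.55, 11.83, 11.72 and 11.61 in Sca1-Cre tumours. It measured 8.08, 10.08 and 10.61 in pre-tumour spleens, against 11.41, 11.06 and 11.54 in wild type. Wild-type spleens lay between the high and the low tumour spleens, and the 3 pre-tumour spleens were lower than all 3 of them. The difference of pre-tumour from wild type was -1.75 ± 0.80, with an unadjusted p of 0.0440 and an adjusted p of 0.883 in limma, and without pre-tumour 1 it was -0.99. Permuting these 6 arrays in every way, an exact two-sided test, gave p = 0.1, the smallest that 3 against 3 allows. Cdca5 was the 1 member with an unadjusted p under 0.05 in the F-test over the 5 groups, 0.0438, with an adjusted p of 0.318 in limma. Cdca5 stood at 7.82, 8.01, 6.35 and 6.54 in Aid-Cre tumours, 7.05, 7.72, 7.96, 8.30 and 8.57 in Mb1-Cre tumours and 6.58, 7.57, 8.06 and 8.06 in Sca1-Cre tumours. Its values were 5.86, 6.60 and 6.90 in pre-tumour spleens, against 7.27, 6.94 and 7.45 in wild type. Its Mb1-Cre and pre-tumour spleens did not overlap, which among the genes shown in full also held for Aurka, Bub1b, Kif15 and Kif23. The share of all genes without overlap was not counted for this pair of groups.

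All 6 spindle motors were below wild type in pre-tumour spleens without overlap, with a median of -1.44, the lowest of the 8 roles. Kif11 pushes spindle poles apart and Kif15 can share this task, Kif18b and Kif2c take microtubules apart at their ends, and Kif22 and Kif4 carry chromosome arms. Kif15 measured 8.25, 8.40, 6.09 and 5.95 in Aid-Cre tumours, 6.97, 7.66, 7.99, 8.80 and 8.88 in Mb1-Cre tumours and 5.91, 7.94, 8.09 and 8.64 in Sca1-Cre tumours. It measured 5.24, 6.63 and 6.67 in pre-tumour spleens, against 7.41, 7.02 and 7.47 in wild type. The pattern again was 2 high and 2 low Aid-Cre spleens, 1 low Sca1-Cre tumour and a low pre-tumour group. Sca1-Cre tumours exceeded pre-tumour spleens by 1.46 ± 0.70, with an adjusted p of 0.851 in limma. Kif11 had the widest pre-tumour difference from wild type, -1.62 ± 0.89.

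Spindle assembly was represented by Tpx2, Spag5, Tacc3, Hmmr, Nusap1 and Dlgap5, which bind and stabilise spindle microtubules. All 6 were lower in pre-tumour spleens (median -1.28), 5 of them without overlap. Nusap1 had log2 values of 9.73, 9.87, 7.60 and 8.38 in Aid-Cre tumours, 8.29, 9.44, 10.005, 10.36 and 10.20 in Mb1-Cre tumours and 7.76, 9.39, 9.55 and 8.76 in Sca1-Cre tumours. Its values were 6.81, 8.12 and 8.47 in pre-tumour spleens, against 8.79, 8.66 and 9.03 in wild type. Its value in Sca1-Cre tumour 4 was within the wild-type range, while Sca1-Cre tumours 2 and 3 were above it. Dlgap5 was read at 9.50, 10.01, 7.16 and 7.68 in Aid-Cre tumours, 7.34, 8.58, 9.16, 10.07 and 9.90 in Mb1-Cre tumours and 7.25, 8.94, 9.17 and 8.54 in Sca1-Cre tumours. It measured 6.54, 7.63 and 8.08 in pre-tumour spleens, against 8.60, 8.08 and 8.73 in wild type. Pre-tumour 3 reached the lowest wild-type spleen for this gene, and its F-test over the 5 groups had an adjusted p of 0.550 in limma.

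The genes of cytokinesis, the division of the cell body, were the most varied role. Of 8 genes, 7 were lower in pre-tumour spleens than in wild type (median -1.10), 5 without overlap. Anln, Ect2, Prc1, Kif20a and Kif23 followed the other roles, with Anln at -1.97 ± 0.94 and Prc1, which bundles midzone microtubules, at -1.80 ± 0.90. Kif23 stood at 9.49, 10.11, 7.58 and 7.75 in Aid-Cre tumours, 8.35, 8.94, 9.74, 10.12 and 10.10 in Mb1-Cre tumours and 7.45, 9.21, 9.19 and 9.27 in Sca1-Cre tumours. Its values were 6.89, 7.79 and 7.93 in pre-tumour spleens, against 8.61, 8.36 and 8.85 in wild type. Kif23 is the motor subunit of centralspindlin, and its 3 upper Sca1-Cre tumours lay close together. Its partner in centralspindlin, Racgap1, was read quite differently in pre-tumour spleens. Racgap1 measured 8.99, 9.65, 7.48 and 7.36 in Aid-Cre tumours, 7.86, 8.16, 8.87, 9.55 and 9.25 in Mb1-Cre tumours and 7.67, 8.69, 8.89 and 9.09 in Sca1-Cre tumours. It measured 7.84, 7.80 and 8.22 in pre-tumour spleens, against 8.25, 7.81 and 8.16 in wild type. The pre-tumour and wild-type ranges of Racgap1 nearly coincided, with a difference of -0.12, while its tumour spleens were split into high and low ones as those of Kif23 were. It had the largest F-test p of the 50 genes, with an adjusted p of 0.686 in limma.

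Cep55, which recruits the abscission machinery to the midbody, stood apart from the block and was added to the genes shown in full after its values were seen. Cep55 had log2 values of 5.87, 6.60, 5.68 and 5.25 in Aid-Cre tumours, 5.96, 5.88, 5.95, 6.55 and 6.90 in Mb1-Cre tumours and 5.68, 5.90, 7.10 and 8.65 in Sca1-Cre tumours. Its values were 5.36, 5.96 and 5.55 in pre-tumour spleens, against 5.10, 5.36 and 5.38 in wild type. All 5 Mb1-Cre and all 4 Sca1-Cre tumours were above all wild-type spleens, and Sca1-Cre tumours 3 and 4 had the highest values of all. Sca1-Cre tumours exceeded wild type by 1.55 ± 0.52, a 2.93-fold higher level, with an unadjusted p of 0.00869 and an adjusted p of 0.269 in limma. Without Sca1-Cre tumour 4 that difference was 0.94. In Sca1-Cre tumour 4 it was 3.37 above its wild-type mean while the median of the 50 genes was 0.68 above. In pre-tumour 1 it was 0.08 above its wild-type mean where that median was -1.98. Its wild-type values of 5.10 to 5.38 are close to the array medians of 5.23 to 5.40. Among the other departures from the block, Racgap1 was at -0.24 and Mki67 at -3.26 from their wild-type means in pre-tumour 1, and Ube2c was at -0.40 in Sca1-Cre tumour 4.

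**Figure D4:**
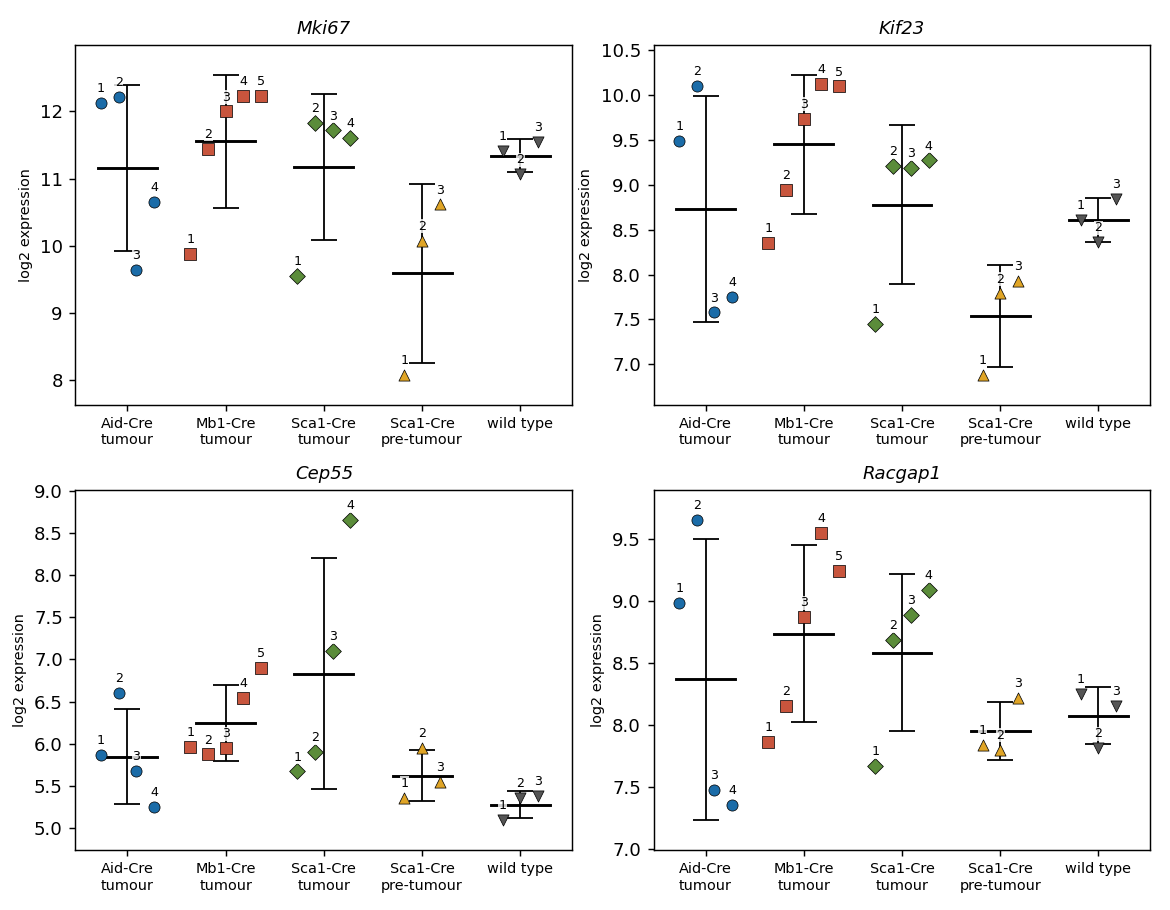
Log2 expression (y axis) of Mki67, Kif23, Cep55 and Racgap1 in each spleen, by group (x axis), with replicate numbers, group means (bars) and SDs (whiskers). Mki67 and Kif23 are lowest in pre-tumour spleens, Racgap1 is at the wild-type level there, and Cep55 is highest in Sca1-Cre tumours 3 and 4 (7.10 and 8.65).

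Genes of neighbouring steps were read beside the members, and limma called 0 of them in the 9 comparisons. The other mitosis and DNA replication lists lay on the members' side of wild type in all 16 HGAL spleens, so their genes are not separate observations. Of 56 other mitosis genes, 53 were lower in pre-tumour spleens than in wild type (median -0.66) and 55 were higher in Mb1-Cre tumours (median 0.56). For pre-tumour minus wild type 3 of them had an unadjusted p under 0.05 in limma, against 2.4% of all genes lower and 3.07% higher. The 31 DNA replication genes were all lower in pre-tumour spleens (median -0.65) and all higher in Mb1-Cre tumours than in wild type (median 0.37). All were higher in Sca1-Cre tumours than in pre-tumour spleens (median 0.93), 6 at an unadjusted p under 0.05, against 2.42% of all genes. Among them Rrm2, a subunit of ribonucleotide reductase, averaged 6.83 in pre-tumour spleens and 8.68 in wild type, and Uhrf1, which maintains DNA methylation at replication, averaged 6.67 and 7.67. Of 20 regulators of these genes 16 were lower in pre-tumour spleens (median -0.36), with E2f8, a repressor that is itself made in S phase, lowest at -2.05. Myb, a transcription factor of progenitor cells, averaged 8.36, 8.52 and 8.25 in Aid-Cre, Mb1-Cre and Sca1-Cre tumours, 7.55 in pre-tumour spleens and 7.78 in wild type.

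In lists with a steadier role the median lay near 0. The 16 subunits and helpers of the anaphase-promoting complex had a median difference of 0.01 between pre-tumour spleens and wild type, with 8 higher and 8 lower. Fzr1, an activator of the complex, at -1.27 and Ube2s, its chain-extending enzyme, at -0.77 were lower without overlap, as were 8.49% of all genes. The 12 cohesin subunits and loaders had 0.01, with 6 and 6. Esco2, the acetyltransferase that acts on cohesin in S phase, was the widest of the cohesin list at -1.34. The 7 Cdk inhibitors had a median of 0.04, with Cdkn2c at -0.70 and Cdkn1a, a target of p53, at 0.28.

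Marker genes of other cells were then set against the members in the 16 HGAL spleens. The DNA replication list and the other mitosis genes lay on the same side of wild type as the members in 16 of 16 spleens, and the 17 erythroid genes in 15 of 16. Neutrophil genes were on the same side in 14, megakaryocyte genes in 13, haematopoietic progenitor genes in 12 and plasma cell genes in 11. Macrophage and red pulp genes were so in 10, germinal centre B cell genes in 8, B cell genes in 4 and T cell genes in 2. The erythroid exception was Sca1-Cre tumour 4, where the mitosis median was 0.68, the erythroid median -1.49 and the median of 9 germinal centre B cell genes 2.47. In no other spleen did the germinal centre list exceed 0.33. In the 3 pre-tumour spleens the erythroid medians were -2.92, -1.66 and -0.89, in the same order as the mitosis medians. The erythroid genes Car2, Slc4a1 and Tfrc, chosen for the highest means of that list, averaged 11.01, 10.29 and 8.53 in pre-tumour spleens and 12.08, 11.86 and 10.24 in wild type. The lowest group mean of an erythroid gene was 6.02 (Epor, pre-tumour). Single pre-tumour spleens came down to 5.08 for Rhag and 5.16 for Klf1, under the lowest array median of 5.23, so the size of the gap there is not exact. The part of the erythroid genes in the levels of the mitosis genes was not tested.

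**Figure D5:**
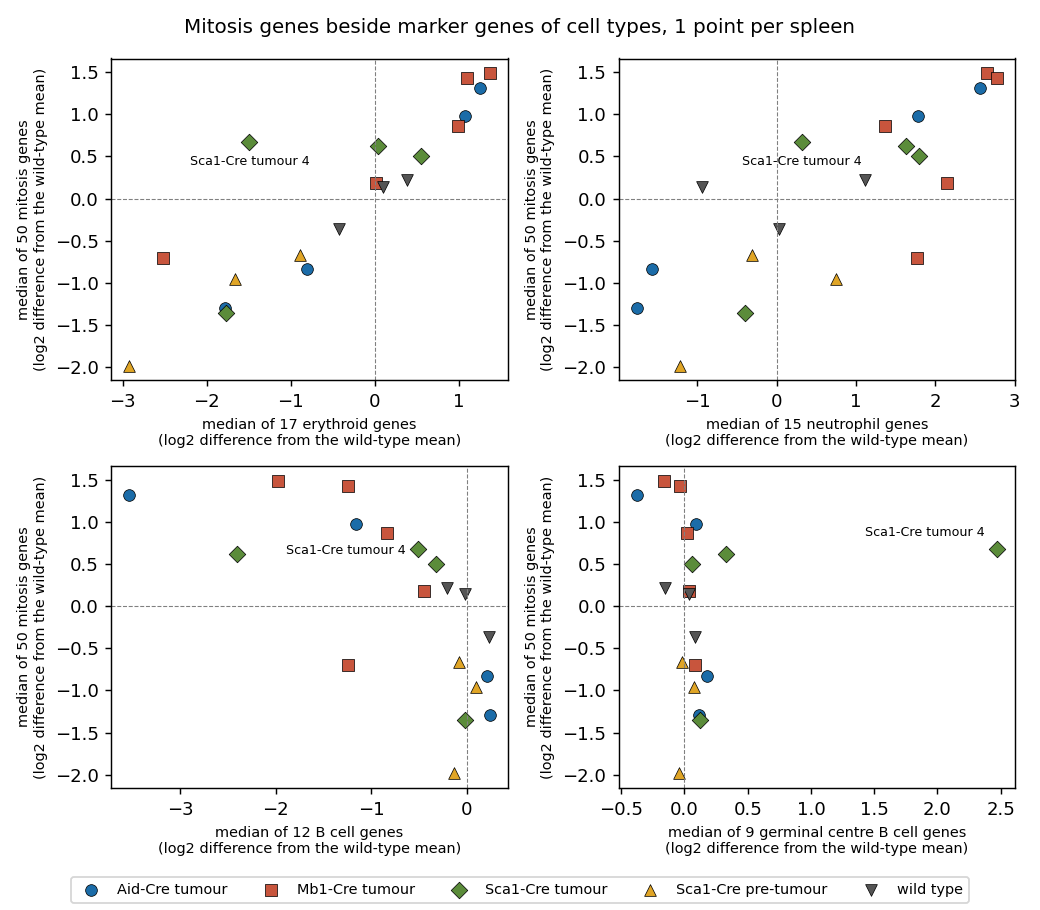
Median of the 50 mitosis genes (y axis) against the median of 17 erythroid, 15 neutrophil, 12 B cell and 9 germinal centre B cell genes (x axes) in each spleen, all as log2 differences from the wild-type mean, with groups by colour and shape. Erythroid and mitosis medians mostly rise together. Sca1-Cre tumour 4 (erythroid -1.49, mitosis 0.68) lies off this trend and alone has a high germinal centre median (2.47). Mb1-Cre tumour 1 (erythroid -2.52, mitosis -0.70) has the lowest erythroid median of the tumour spleens but not their lowest mitosis median.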

How the data were processed

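Total RNA of 19 samples of total spleen was fragmented, biotinylated and read on Affymetrix arrays, per the labels' protocols. The authors made the deposited log2 values with RMA in the oligo package, per the submitters' processing notes; their versions were not given in the sources used here. Values ran from 2.23 to 13.84 with array medians of 5.23 to 5.40, were used as deposited, and left 0 columns unused. Precision is limited by how many arrays a group has.

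Of 41345 probe sets, 23521 were paired with 1 symbol, 1814 with several and 16010 with none. The probe set with the highest mean stood for a gene with several (1082 genes), which gave 22180 genes. Groups were fitted with limma 3.58.1 in R 4.3.3 (14 residual and 2.46 prior degrees of freedom), two-sided, and the fit was tested on simulated data. Groups came from the sample titles, and genes shown in full were, in each role, the member with the smallest F-test p, the 3 with the largest such p over all members, and 2 chosen after their values were seen. Motifs were searched in RefSeq promoter windows of 300 bases (GRCm38.p6). The mitosis genes, the lists and the tests were chosen with earlier results of these data known. Alternatives were other scalings, a filter on dim genes, the mean of probe sets, only the compared groups, a variance trend with robust settings, the replicate number as a block, sex as a covariate and arrays left out. Tables and figures were made with pandas 2.3.3 and matplotlib 3.10.9 in Python 3.11.15.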

Additional observations from a re-analysis of the deposited data

Results flagged for a closer look

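Sca1-Cre tumour 1 stood far from the other 3 Sca1-Cre tumour spleens. The median of the 50 mitosis genes, as the difference from the wild-type mean, was -1.35 there and 0.50 to 0.68 in the others. By gene, Aurka was 6.48 there and 8.20 to 8.53 in the others, Ndc80 was 7.95 and 9.17 to 9.36, and Bub1b was 5.81 and 7.89 to 8.22. Birc5 was 5.10 there and 7.60 to 8.11 in the others, Kif23 was 7.45 and 9.19 to 9.27, and Mki67 was 9.55 and 11.61 to 11.83. These 7 came from 42 combinations of gene and tumour group, of which chance sets apart about 1 in 20, and since the genes move together they amount to 1 observation. In the same spleen the erythroid median was -1.77.

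Bub1b was above its wild-type mean in every Mb1-Cre tumour spleen (mean difference 1.07) and below it in every pre-tumour spleen (mean difference -0.75). The difference between these 2 was not tested.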

How the results depend on the processing

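No mitosis gene was called under any of the 308 combinations of comparison and alternative setting (smallest adjusted p by limma over all settings 0.133). Of 1008 alternative values of 36 differences of named genes, 1007 kept their direction and their side of the threshold. The exception was Mki67 for Mb1-Cre tumour minus wild type, at -0.035 with the replicate block and 0.22 without it. Much of this was fixed in advance. Leaving out an array outside a comparison cannot change its difference of group means. Nor can the filter on dim genes, the mean of probe sets (each member has 1), the fit of only the compared groups or the variance trend. With no member called in the joint fit, the side of the threshold adds little. Counts at an unadjusted p under 0.05 moved more. With only the compared groups in the fit they were 47 for pre-tumour minus wild type (1 in the joint fit), 23 for Sca1-Cre tumour minus pre-tumour (6) and 2 for Mb1-Cre tumour minus wild type (0). With the replicate block they were 1 for Sca1-Cre tumour minus pre-tumour and 0 for all tumours minus wild type (1). With sex as a covariate they were 0 for pre-tumour minus wild type and 3 for Sca1-Cre tumour minus pre-tumour. Another setting left out the 2 arrays highest in pancreatic transcripts (chosen after seeing the data). There the counts were 0 for all tumours minus wild type, 0 for pre-tumour minus wild type and 3 for Sca1-Cre tumour minus pre-tumour. With quantile normalization the count was 2 for pre-tumour minus wild type. The cause of these moves was not tested. With 1 array left out at a time the counts ran from 0 to 1 for all tumours minus wild type, 0 to 5 for Mb1-Cre tumour minus wild type, 1 to 2 for Sca1-Cre tumour minus wild type, 0 to 9 for pre-tumour minus wild type, 0 to 44 for Sca1-Cre tumour minus pre-tumour, 0 to 6 for Aid-Cre minus Mb1-Cre, 0 to 1 for Aid-Cre minus Sca1-Cre and 0 to 2 for Mb1-Cre minus Sca1-Cre tumour. The 9 of pre-tumour minus wild type came without Mb1-Cre tumour 1.

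Medians of the 50 genes changed sign with 1 array left out for Aid-Cre tumour minus wild type (-0.43 to 0.50), Sca1-Cre tumour minus wild type (-0.11 to 0.59) and Aid-Cre minus Sca1-Cre tumour (-0.58 to 0.42). The other 6 kept their direction, though all tumours minus wild type came down to 0.04, and to 0.08 without the arrays with pancreatic transcripts and 0.10 with the replicate block. The replicate numbers did not pair the samples: correlations of same-numbered arrays, as deviations from group means, lay between -0.53 and 0.41 over 33 pairs, and 1 of 19 arrays correlated best with its own number. With the replicate block the median was -0.07 for Aid-Cre tumour minus wild type and 0.30 for Mb1-Cre tumour minus wild type, and no gene was called.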
